A study of Mus musculus with 12 samples.

Results

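The 100 brightest probes of a mouse bladder cDNA array were followed through saline and 3 inflammatory challenges. All 12 arrays were first quantile-normalized, so that a given rank carries one and the same value on each of them. Lower values were set to a floor of 15.54 on the log2 scale, which is the 10th percentile of the normalized values. Of 1185 probes, those at least 2-fold higher on LPS 1 h than on saline 1 h were left out, and the 100 with the highest mean over the 12 arrays were kept. The members were thus chosen by their mean over all arrays and by their LPS 1 h and saline 1 h values. The 2 last members had means of 16.705 and 16.700, and the next 2 probes outside had means of 16.696 and 16.695. The LPS 1 h limit left out 7 probes that were bright enough, with differences of 1.16 to 3.57 on the log2 scale, and the member nearest that limit stood at 0.94.

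Total RNA of bladders from C57BL/6 mice was used, with 1 array for each of 4 treatments at 1, 4 and 24 h. The labels describe the saline, substance P and LPS mice as female and give no sex for the ovalbumin mice. Substance P was given at 1 µM and LPS at a labelled 100 mg/ml, and neither these mice nor the saline controls are described as sensitized. Ovalbumin stands for mice sensitized with DNP-HSA and then given DNP-OVA into the bladder. The age, the route of the other agents and the number of mice behind an array are not stated in the labels. With 1 array a group, the p-values reflect spread among these arrays alone, and some of it may be technical. The 3 ovalbumin arrays carry lot 1. Lot 2 covers saline at 1 and 4 h together with substance P 24 h, and no lot is given for the other 6 arrays. The batch number beside the lot is 1 for the arrays at 1 h, 2 at 4 h and 3 at 24 h, so batch and time cannot be told apart on the 6 arrays that carry one. Ovalbumin, sensitization and lot cannot be told apart.

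The bladder wall is a urothelium over a lamina propria and the detrusor, a layer of smooth muscle. In such tissue the most abundant transcripts usually encode contractile, cytoskeletal, matrix and housekeeping proteins. LPS acts on innate immune receptors and substance P, released by sensory nerves, on neurokinin receptors. DNP antigens are a standard way to trigger mast cells that carry specific IgE. Which of the members belong to any of these classes is not known here, because the deposited table gives probe codes only and 0 of them matched a symbol, gene ID, locus tag or transcript accession of the mouse gene table (GRCm38.p6). The tissue markers could not be checked for the same reason. Members are therefore given by code, no sequence is shown, and a bright probe is not read as an abundant transcript, since probe length and labelling differ between probes. In whole bladder RNA, fewer cells of a type and less RNA per cell cannot be told apart.

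The codes fall into 3 series whose meaning is not given in the sources used here. Codes starting with M made up 68 of the members and 50.4% of all probes. V codes made up 19 members and 29.6% of all probes, and MA codes made up 13 members and 20% of all probes.

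The members did not stand equally far above background on all arrays. Before scaling, a member's brightness can be read as its intensity over the median probe of the same array. The median member stood at 4.37, 3.78 and 3.62 times the array median on substance P 1, 4 and 24 h. It stood at 2.56, 3.42 and 1.90 times on saline 1, 4 and 24 h, and at 1.77, 2.22 and 1.46 times on the ovalbumin arrays in the same order. On LPS 1, 4 and 24 h it stood at 2.50, 1.40 and 2.15 times. The substance P arrays thus separated these probes most from the rest, and ovalbumin 24 h and LPS 4 h separated them least. On LPS 4 h 60 members lay under 1.5 times the array median and on ovalbumin 24 h 52 did, against 0 on each substance P array. All 100 were above the floor and above the array median on all 12 arrays. Together they took 17.3% (LPS 4 h) to 45.2% (substance P 1 h) of the summed intensity of an array.

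**Figure D1:**
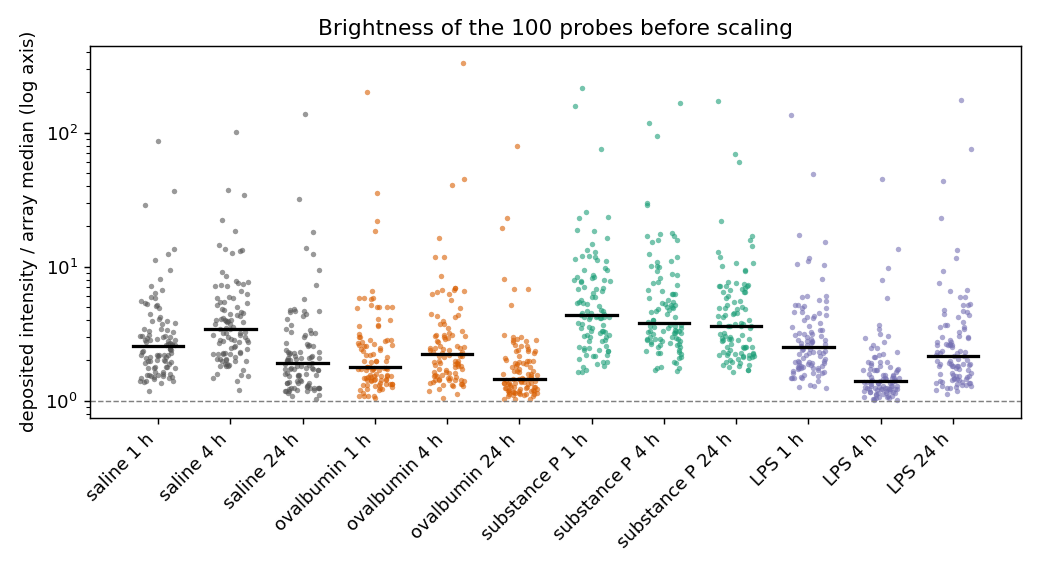
Deposited intensity of each of the 100 members divided by the median probe of the same array (log axis), with 1 point per member and a bar at their median. The medians run from 1.40 on LPS 4 h to 4.37 on substance P 1 h, and the dashed line marks the array median.

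Only a minority of the members held their brightness. Over the 12 arrays 14 members stayed within a 2-fold range (under 1 on the log2 scale), 72 ranged from 1 to 2, and 14 ranged over 2 or more. The median SD of a member was 0.43 and its median range was 1.42, against 0.17 and 0.55 over all 1181 probes tested. Of all tested probes 80.2% stayed under 1. The floor of 15.54 limits how far a dim probe can fall, and the median tested probe had a mean of only 15.86. Most of the other probes were thus less free to vary than the members. The part of the floor in this contrast was not tested. Membership was also uneven from array to array. Of the 100, 31 were among the 100 brightest probes on every array, 53 on 6 to 11 arrays and 16 on fewer than 6. The fewest members reached the 100 brightest on LPS 1 h (60) and LPS 4 h (64), and the most on substance P 4 h (83). The LPS 1 h count is lowered by the rule itself, which left out probes that were high there.

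**Figure D2:**
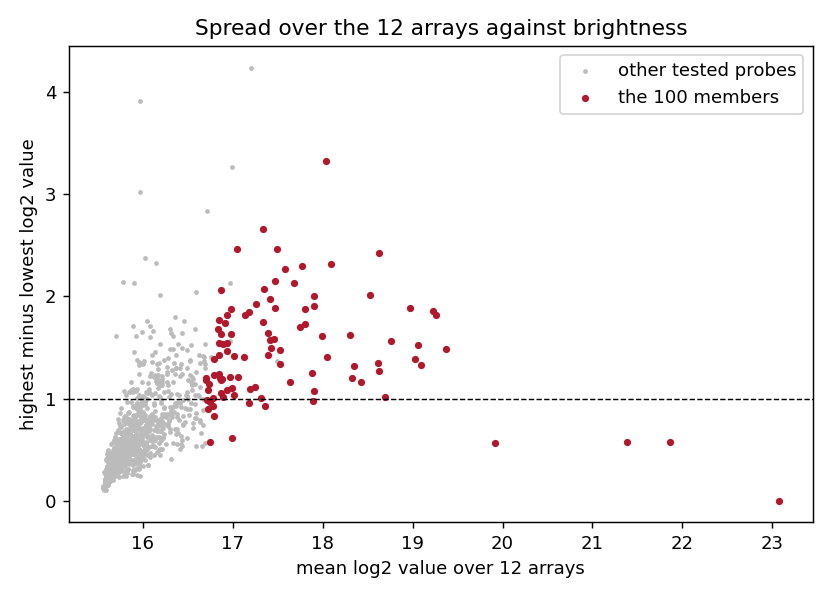
Highest minus lowest log2 value over the 12 arrays (vertical) against the mean log2 value (horizontal), with 1 point per probe, members in red and other tested probes in grey. The dashed line marks a 2-fold range: 86 of the members lie on or above it, while the 4 brightest lie below it.

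The 3 brightest members kept their rank. M567 ranked first on every array, so its normalized value was 23.07 throughout and its range was 0. M908 ranked second and MA332 the third on 11 of 12 arrays, at 21.91 and 21.34, and they changed places on ovalbumin 24 h. M35, the fourth by mean, ranked between 4 and 6 on every array and had the smallest range after M567 (0.56). It stood at 20.14, 19.89 and 20.14 on saline 1, 4 and 24 h, at 20.14, 20.14 and 19.89 on the ovalbumin arrays, at 19.59 on all substance P arrays and at 19.89, 20.14 and 19.89 on the LPS arrays. The substance P values were the lowest and did not overlap those of any other treatment. M723, the next most stable (range 0.57), is a dimmer member. It stood at 16.91, 16.65 and 16.77 on the saline arrays, at 16.94, 16.82 and 16.55 on the ovalbumin arrays, at 16.69, 16.52 and 17.10 on the substance P arrays and at 16.64, 16.64 and 16.77 on the LPS arrays. Its 4 treatments overlapped, and it was among the 100 brightest on only 3 arrays.

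This stability is one of rank. Relative to the array median, M567 stood between 45.2 times (LPS 4 h) and 332 times (ovalbumin 4 h), a range of 2.88 on the log2 scale under median scaling. The ranges of M908, MA332, M35 and M723 were then 3.56, 3.28, 1.79 and 1.10. Under median scaling 10 members stayed within a 2-fold range and 43 ranged 4-fold or more (2 on the log2 scale). Only 1 member stayed within 2-fold under both scalings. The word stable thus holds for these probes under quantile normalization and not under median scaling.

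The widest ranges belonged to M318 (3.33), V336 (2.66) and MA246 (2.47). MA246 stood at 17.88 and 18.11 on saline 1 and 4 h but at 15.97 on saline 24 h. On the ovalbumin arrays it stood at 16.15, 15.98 and 16.02, on the substance P arrays at 17.83, 16.96 and 18.43, and on the LPS arrays at 16.97, 17.64 and 16.59. It was thus low with ovalbumin and on saline 24 h and higher on each of the other 8 arrays.

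Saline 24 h stood apart from the other saline arrays, on these probes and over all tested probes. The mean absolute log2 difference over the members was 0.40 between saline 1 h and 4 h. Between saline 24 h and the other saline arrays it was 0.62 and 0.70, but from saline 24 h to the ovalbumin arrays only 0.24 to 0.38. Over all tested probes the same differences were 0.22, then 0.26 and 0.28, then 0.16 to 0.21. The pattern was thus not particular to the members. Within a treatment, the members differed least between the 3 substance P arrays (0.24 to 0.29) and the 3 ovalbumin arrays (0.21 to 0.35). They differed more between the LPS arrays (0.55 to 0.67) and between the saline arrays (0.40 to 0.70). The nearest array to saline 4 h was substance P 1 h (0.22), and the nearest to saline 1 h was substance P 24 h (0.33). For results that use saline 24 h, the fits without it or the levels on the other saline arrays are therefore given where the value changed.

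**Figure D3:**
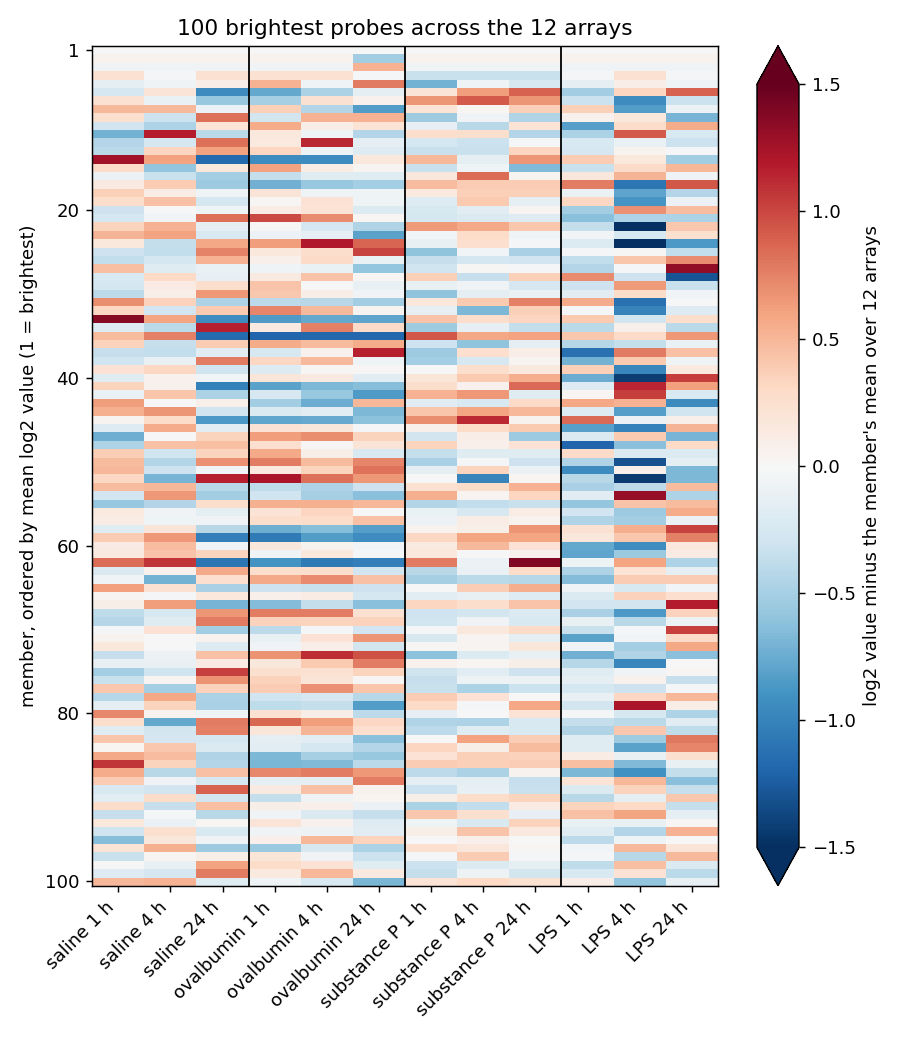
Log2 value of each member minus its own mean over the 12 arrays, with members in rows from the brightest (1) to the dimmest (100) and arrays in columns; black lines separate the treatments. The saline 24 h column resembles the ovalbumin columns (mean absolute difference 0.24 to 0.38) more than the saline 1 h and 4 h columns (0.62 and 0.70). Colours stop at 1.5 on either side, and the lowest cell is M318 on LPS 4 h.

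The time courses within a treatment were read as counts of members at least 2-fold apart, with 1 array against 1 and no replicate. In saline, 4 members were 2-fold apart between 4 and 1 h (0.677% of all probes tested), 23 between 24 and 1 h (2.88%) and 24 between 24 and 4 h (2.79%). In ovalbumin the counts were 0 (0%), 4 (0.847%) and 4 (0.762%), and in substance P 0 (0.508%), 0 (1.02%) and 4 (0.847%) in the same order. In LPS they were 21 (3.47%), 15 (5%) and 25 (4.49%). The rule used saline 1 h and LPS 1 h and left out probes high on LPS 1 h. Counts against 1 h in saline and LPS are thus partly set by it. Between 24 and 4 h, which the LPS 1 h limit did not use, LPS had 25 and saline 24, against 4 each for ovalbumin and substance P. The bright probes thus differed little between times under ovalbumin and substance P and more under LPS and saline, where the saline counts are those of the 24 h array.

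Tests came from limma, fitted to 1181 probes (those over the floor on 3 or more arrays, which took in all 100 members) with additive terms for stimulus and for time. The 6 residual degrees of freedom also take up responses limited to a single time. P-values were adjusted over all probes (Benjamini-Hochberg, threshold 0.05), and each SE given with a difference is that of this model. Counts under another scaling or model, or with arrays left out, are of members alone. The share of all probes is not given beside them, so they are not read as particular to the members.

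The median share of the variation was larger between treatments than between times, among the members and over all tested probes alike. Of the 99 members that varied, the median member had 36.8% of its sum of squares between treatments and 12.8% between times. Over all tested probes the medians were 30.5% and 15.1%. Treatments have 1 more degree of freedom than times, so they take a larger share even without any effect. M908, for which a single array differed from the rest, had 27.3% and 18.2%. No effect of stimulus is read from these shares. In the limma F test across the 4 treatments 1 member, M665, passed, against 0.169% of all probes (2), and 32 members had an unadjusted p under 0.05 against 14% of all probes. Without saline 24 h 13 members passed, without saline 4 h 4 and without LPS 24 h 3, while none passed when ovalbumin 1 h, ovalbumin 4 h, ovalbumin 24 h, substance P 4 h or LPS 1 h was dropped.

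M665 set ovalbumin apart. It stood at 17.61, 18.04 and 17.88 on the ovalbumin arrays at 1, 4 and 24 h. On saline it stood at 16.59, 16.84 and 17.37, on substance P at 16.31, 16.73 and 16.82, and on LPS at 16.21, 16.48 and 16.31. The ovalbumin values were above all 9 others, and saline 24 h was the highest of those. The limma F test gave an adjusted p of 0.0129, and 0.00105 to 0.203 when each array was left out in turn. It passed in 7 of these 12 fits and not without ovalbumin 1 h (0.203), ovalbumin 4 h (0.167), ovalbumin 24 h (0.102), substance P 4 h (0.0594) or LPS 1 h (0.0525). Under median scaling the adjusted p was 0.0999 in limma, after a normexp background correction 0.0885 and without time in the model 0.0554.

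Ovalbumin was compared with LPS. In limma 9 members passed, against 2.88% of all probes. Of these 8 rose with ovalbumin relative to LPS (2.46% of all probes) and 1 fell (0.423%). The choice of the members removed bright probes that were high on LPS 1 h, so the split of higher and lower values against LPS is partly set by it, and nothing is read from that split. Before adjustment 31 members had a p under 0.05 (16.5%), 19 higher (9.74%) and 12 lower (6.77%). All 3 ovalbumin arrays lay above all 3 LPS arrays for 21 members (10.2% of all probes) and below them for 15 (9.31%). The median absolute difference was 0.45 among members and 0.13 among all probes. Under median scaling 0 members passed, and without scaling 15 did, 1 higher and 14 lower with ovalbumin, where the median of all probes lay at -0.30. Leaving out saline 24 h gave 18 (11 higher, 7 lower), which held all 9, and leaving out ovalbumin 1 h, ovalbumin 4 h, LPS 1 h or LPS 4 h left 1 each. Dropping the arrays of a whole time left 0 calls for 1 h, 0 for 4 h and 15 for 24 h.

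M318 had the largest of these differences. It stood at 18.66, 19.23 and 18.91 on ovalbumin at 1, 4 and 24 h and at 17.83, 15.90 and 17.17 on LPS. At each time saline (18.20, 17.67 and 18.61) and substance P (17.92, 18.29 and 18.01) stood between them. On LPS 4 h the probe ranked 526 of 1185 and was close to the median probe of the array (1.02 times). The ovalbumin and LPS values did not overlap, and M318 was higher with ovalbumin by 1.96 ± 0.42 (SE; limma adjusted p = 0.0452), with a 95% interval of 1.01 to 2.92. Without LPS 4 h the difference was 1.43 ± 0.33 (limma adjusted p = 0.117). In the 12 fits that leave out 1 array it passed only without saline 24 h (0.0402), with limma adjusted p-values of 0.0524 to 0.203 in the others, and under median scaling it was 1.29 (limma adjusted p = 0.749).

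V336 differed in the same direction. It stood at 18.56, 18.15 and 17.98 on ovalbumin, at 16.91, 15.90 and 16.67 on LPS, at 17.34, 16.34 and 17.37 on substance P and at 17.64, 16.64 and 18.50 on saline at 1, 4 and 24 h. The ovalbumin arrays were above all LPS and substance P arrays, and saline 24 h lay within the ovalbumin range. The difference from LPS was 1.74 ± 0.31 (SE; limma adjusted p = 0.0243), higher at 3 of 3 times. It no longer passed without ovalbumin 1 h (limma adjusted p = 0.117), ovalbumin 4 h (0.134), LPS 1 h (0.083), LPS 4 h (0.0993) or LPS 24 h (0.0567), or under median scaling (1.00, limma adjusted p = 0.749).

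M369 was the 1 member that fell. It stood at 16.44, 16.54 and 16.35 on ovalbumin and at 17.41, 17.72 and 18.20 on LPS at 1, 4 and 24 h. On saline it stood at 17.00, 17.37 and 16.76 and on substance P at 17.23, 17.26 and 17.84. Ovalbumin was thus the lowest treatment and LPS the highest at every time. The difference was -1.33 ± 0.22 (SE; limma adjusted p = 0.0243). It no longer passed without any one of the 6 arrays compared (limma adjusted p = 0.0537 to 0.134), and under median scaling it was -1.06 (limma adjusted p = 0.799).

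Ovalbumin against substance P gave 2 calls, both higher with ovalbumin, against 0.508% of all probes. The unadjusted p was under 0.05 for 36 members (18.2% of all probes), of which 16 were higher (8.81%) and 20 lower (9.4%) with ovalbumin. All 3 ovalbumin arrays lay above all 3 substance P arrays for 28 members (16.9%) and below them for 30 (15.2%), the highest such counts of the 6 comparisons. Under median scaling 45 members passed, all lower with ovalbumin, and neither of the 2 was among them. The median member then differed by -1.09, while the median of all probes stood at 0.02. Without scaling all 100 passed, all lower, with the median of all probes at -1.28. These shifts go with the brightness given above, 1.46 to 2.22 times the array median on ovalbumin against 3.62 to 4.37 times on substance P, and the part of this gap in the calls was not tested. The count also changed when 1 array was left out, to 26 without saline 24 h, 7 without saline 4 h, 1 without saline 1 h or any one LPS array, and 0 without any one ovalbumin or substance P array.

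The 2 members called against substance P were M665 and V287. M665, with the values given above, was higher with ovalbumin by 1.22 ± 0.14 (SE; limma adjusted p = 0.00883). Without any one of the 6 arrays compared it did not pass (limma adjusted p = 0.0515 to 0.0937), under median scaling it was 0.15, and without scaling it turned to -1.15. V287 stood at 18.20, 18.11 and 18.20 on ovalbumin and at 17.33, 17.04 and 17.49 on substance P. It stood at 17.98, 17.30 and 18.01 on saline and at 17.21, 17.28 and 17.54 on LPS. The ovalbumin values were the highest at every time, while saline 1 h and 24 h came close to them. Relative to substance P, V287 was higher with ovalbumin by 0.88 ± 0.14 (SE; limma adjusted p = 0.0453). It passed only without saline 4 h (0.0136) or saline 24 h (0.0186) among the 12 fits that leave out 1 array, with limma adjusted p-values of 0.0524 to 0.254 in the others. The sign turned under median scaling (-0.42) and in the unscaled values (-1.73).

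**Figure D4:**
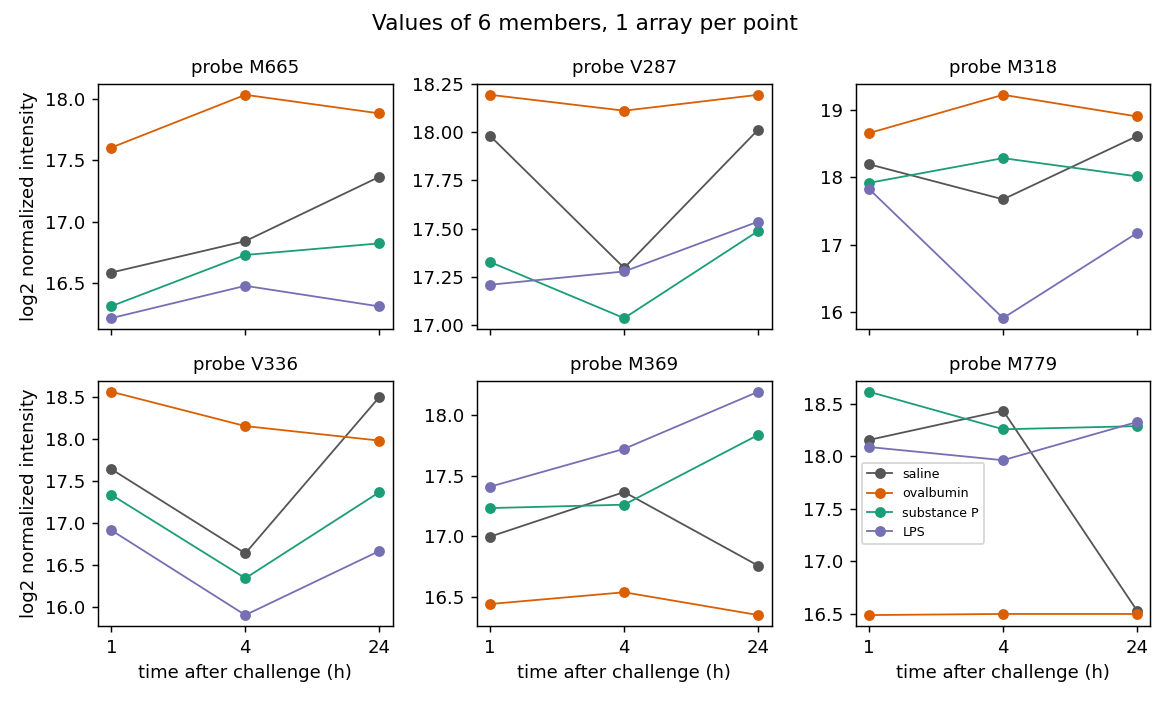
Log2 normalized intensity of 6 members at 1, 4 and 24 h (evenly spaced), with 1 point per array, lines joining arrays of one treatment, and a separate vertical scale for each probe. Ovalbumin is the highest treatment for M665, V287 and M318 and the lowest for M369 at every time; in M779 saline 24 h drops to 16.53, beside the ovalbumin arrays at 16.49 to 16.50.

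Substance P against LPS gave no call among the members in limma (0% of all probes), with 11 members at an unadjusted p under 0.05 against 5.59% of all probes. Of these 10 were higher with substance P (3.3%) and 1 lower (2.29%), a split that the choice of the members on LPS 1 h partly sets. Median scaling gave 10 members, all higher with substance P, no scaling gave all 100, and leaving out LPS 24 h gave 3. The highest difference with 1 sign at all times was that of M700, 1.27 ± 0.27 (SE; limma adjusted p = 0.557). It stood at 19.89, 20.14 and 19.89 on substance P and at 18.91, 18.29 and 18.91 on LPS, and under median scaling it passed at 2.51 (limma adjusted p = 0.0449). The lowest of the same kind was that of M35, -0.39 ± 0.12 (SE; limma adjusted p = 0.823), which reversed under median scaling (0.68).

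Against saline, no member passed for any stimulus in limma (0% of all probes in each comparison). The rule used saline 1 h and LPS 1 h, so the LPS counts in particular are partly set by it. For ovalbumin 20 members had an unadjusted p under 0.05 (9.14% of all probes), 9 higher (5.5%) and 11 lower (3.64%). For substance P 8 did (4.4%), 5 higher (2.46%) and 3 lower (1.95%), and for LPS 17 did (9.31%), 3 higher (4.06%) and 14 lower (5.25%). The median half-width of the 95% interval for a member was 0.62, before any adjustment over probes. For the median member, a difference under about 1.5-fold could thus not be told from 0. After adjustment, larger differences given below were not called either. Without saline 24 h, 10 members passed for ovalbumin, 3 higher and 7 lower. Without LPS 24 h 2 members passed for LPS, both lower. A fit of the 9 arrays without ovalbumin that took lot 2 as a block gave 0 for substance P and 0 for LPS. The arrays with no lot given, among them saline 24 h and all LPS arrays, were taken there as outside lot 2. The labels do not say so, and this fit therefore cannot show what lot contributes.

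Among members with 1 sign at all 3 times, M779 was the lowest for ovalbumin, and its difference depends on which saline array is taken. It stood at 16.49, 16.50 and 16.50 on ovalbumin and at 18.15, 18.43 and 16.53 on saline at 1, 4 and 24 h. On substance P it stood at 18.61, 18.26 and 18.29 and on LPS at 18.09, 17.96 and 18.33. Ovalbumin and saline 24 h were thus low and the other 8 arrays high, between 17.96 and 18.61. The difference from saline was -1.21 ± 0.38 (SE; limma adjusted p = 0.43), and -1.82 without saline 24 h (limma adjusted p = 0.00264) and -0.80 without saline 4 h. The highest of these members was M665 at 0.91 ± 0.14 (SE; limma adjusted p = 0.0806), which passed without saline 24 h at 1.09 (limma adjusted p = 0.00272) and turned to -0.54 without scaling.

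For substance P the extremes among members with 1 sign at all 3 times were M909 and V336. M909 stood at 19.46, 19.89 and 20.14 on substance P and at 19.01, 19.46 and 18.33 on saline, a difference of 0.90 ± 0.34 (SE; limma adjusted p = 0.871). The lowest substance P value equalled the highest saline value, and without saline 24 h the difference was 0.38. V336 was at -0.58 ± 0.31 (SE; limma adjusted p = 0.871), at -0.17 without saline 24 h, and reversed under median scaling (0.15). For LPS the extremes of the same kind were M369 at 0.74 ± 0.22 and M318 at -1.19 ± 0.42 (SE; both limma adjusted p = 0.459). Without saline 24 h M369 was at 0.47, without LPS 4 h M318 was at -0.66, and M369 turned to -0.32 without scaling.

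At single times the members were read against the saline array of the same time, 1 array against 1. The floor limits how far a dim probe can lie below saline, which bears on the shares of all probes. Of the 100, 39 were within 2-fold of saline in all 9 comparisons of a stimulus at a time (88.9% of all probes were), 30 were 2-fold away in 1 (6.94%), 18 in 2 (2.54%) and 13 in 3 or more (1.61%).

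With ovalbumin at 1 h, 5 members were at least 2-fold higher (0.847% of all probes) and 10 lower (1.1%), which median scaling changed to 1 and 13. The extremes were M241, 2.56-fold higher, and V128, 4.64-fold lower. At 4 h 10 were higher (1.44%) and 9 lower (1.27%), or 1 and 30 under median scaling, with M318 2.94-fold higher and MA246 4.37-fold lower. At 24 h 3 were higher (0.677%) and 0 lower (0.0847%), or 0 and 7 under median scaling. M655 was 2.51-fold higher and M314 1.96-fold lower there. M655 stood at 18.74 on ovalbumin 24 h and at 17.23 and 17.21 on saline 1 and 4 h, while M314 stood at 18.61 against 18.33 and 18.50 and so was not lower than these. This last count depends on which saline array is used, since ovalbumin 24 h had 20 members 2-fold from saline 1 h (3.05% of all probes) and 26 from saline 4 h (3.9%).

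With substance P at 1 h no member was 2-fold higher (1.02% of all probes) or lower (0.169%), and the extremes were M579, 1.96-fold higher, and V195, 1.95-fold lower. Median scaling gave 37 higher and 0 lower, and V195 then did not differ (0.00069 on the log2 scale). At 4 h 2 were higher (0.254%) and 1 lower (0.0847%), or 11 and 0 under median scaling, with M901 2.26-fold higher and MA246 2.22-fold lower. At 24 h 13 were higher (1.52%) and 10 lower (1.1%), or 43 and 0 under median scaling, with MA246 5.53-fold higher and M370 2.85-fold lower. MA246 stood at 18.43 on substance P 24 h, close to saline 1 and 4 h (17.88 and 18.11). M370 stood at 17.39, between saline 4 h (17.34) and 1 h (17.56), so neither was 2-fold from these arrays. This count too depends on the saline array. Within lot 2, the substance P 24 h array had 2 members 2-fold from saline 1 h (0.508% of all probes) and 1 from saline 4 h (0.169%).

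With LPS at 1 h, the comparison that the rule used, 0 members were 2-fold higher (2.54% of all probes) and 2 were lower (0.254%), and nothing is read from these counts. Median scaling gave 1 and 0. The extremes were V282, 1.92-fold higher, and MA337, 2.71-fold lower. At 4 h 3 were higher (0.847%) and 15 lower (1.35%). The median member lay at -0.24 and the median probe at 0.00 on the log2 scale, and V210 was lowest, 4.58-fold below saline at 16.42 against 18.61. The highest, M655, was 2.22-fold above saline and reversed to -0.56 under median scaling, which gave 0 higher and 61 lower. The LPS 4 h array is also the one on which the members stood least above the array median, and the part of this in the 15 lower values was not tested. At 24 h 12 were higher (1.35%) and 16 lower (1.44%), or 14 and 5 under median scaling, with V251 3.66-fold higher and V336 3.57-fold lower. Both folds depend on saline 24 h: V336 stood at 16.67 on LPS 24 h and 16.64 on saline 4 h. V251 stood at 18.15 on LPS 24 h and at 17.07 and 17.61 on saline 1 and 4 h. Against saline 1 h the LPS 24 h array had 17 members 2-fold apart (2.12% of all probes) and against saline 4 h 10 (1.1%).

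**Figure D5:**
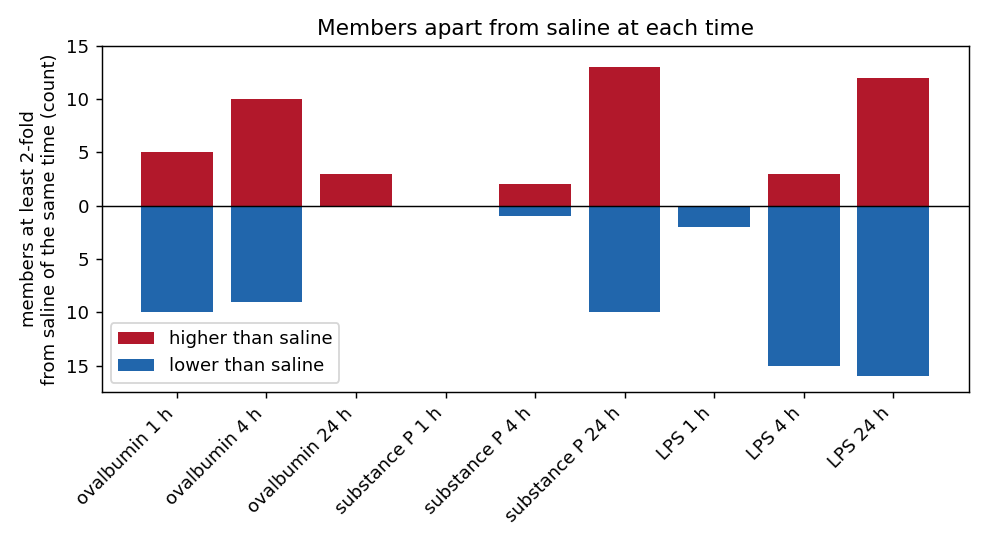
Number of the 100 members at least 2-fold higher (red, upward) or lower (blue, downward) than saline of the same time, for each stimulus and time, 1 array against 1 array. The counts run from 0 for substance P 1 h to 28 for LPS 24 h; the LPS 1 h bar was limited by the choice of the members.

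Without scaling, the members 2-fold from saline lay almost all on 1 side. Ovalbumin had 71, 76 and 38 lower and 0 higher at 1, 4 and 24 h. Substance P had 52, 29 and 71 higher and 0 lower. LPS had 29, 72 and 39 lower and 0, 0 and 1 higher. The median of all probes was then shifted from saline by -0.96, -0.97 and -0.60 with ovalbumin, by 0.26, 0.48 and 0.54 with substance P and by -0.78, -0.11 and -0.73 with LPS.

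Time alone gave no call. The rule used saline 1 h and LPS 1 h, so the counts below, which all hold the 1 h arrays, are partly set by it. In the limma F test across the 3 times 0 members passed (0% of all probes), with 9 at an unadjusted p under 0.05 against 5.67% of all probes. No member passed in any of the 12 fits that leave out 1 array. Between 4 and 1 h 6 members had an unadjusted p under 0.05 (4.83%), 4 higher (2.79%) and 2 lower (2.03%) at 4 h. Between 24 and 1 h 7 did (5.5%), 5 higher (3.56%) and 2 lower (1.95%) at 24 h. Among members with 1 sign in all 4 treatments, the highest difference of 4 h from 1 h was that of M909, 0.50 ± 0.29, and the lowest that of V336, -0.86 ± 0.27 (SE; both limma adjusted p = 0.881). For 24 h against 1 h the highest was M655 and the lowest M798. M655 stood at 17.23, 17.34, 17.04 and 16.46 at 1 h on saline, ovalbumin, substance P and LPS. At 24 h it stood at 17.41, 18.74, 17.68 and 18.01 in the same order. All 4 treatments were thus higher at 24 h, saline by the least, and the difference was 0.94 ± 0.30 (SE; limma adjusted p = 0.712). M655 was -0.0014 without scaling. M798 differed by -0.48 ± 0.18 (SE; limma adjusted p = 0.804).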

How the data were processed

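The authors deposited 1 intensity per probe and array, on a linear scale. How the arrays were scanned and corrected is not given in the sources used here. Deposited intensity values show no common scale, with array medians from 26283 (LPS 24 h) to 94600 (substance P 4 h). Whether background was subtracted is not known, and background left in can compress ratios of dim probes. No column is left unused (0). Quantile normalization, the limma fit and its moderated F tests used limma 3.58.1 in R 4.3.3. The model was also run on simulated data with independent noise and effects constant over time. Those data hold no shifts shared by the probes of an array, so they do not test error control under such shifts. Calls use Benjamini-Hochberg over 1181 probes; 4 were left out by the floor filter. Members and lists were chosen with earlier results of these data known, and the marker lists could not be used without gene names.

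Probes were named by rule: the 3 brightest, the 3 smallest and 3 largest ranges, the 2 highest and 2 lowest called differences of a comparison (without calls, the extremes of 1 sign throughout), and the extremes at each time. Groups came from the sample titles. Alternatives were median scaling, no scaling, normexp correction (offset 50), a floor at the 25th percentile, no filter, a trended robust variance, array weights, 1 factor alone, lot as a block, and leaving out times or arrays; the use of other saline arrays at 24 h was added after seeing the data. The number of arrays limits the precision.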

Additional observations from a re-analysis of the deposited data

Results flagged for a closer look

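The results below were singled out because the effects of 2 stimuli relative to saline differ in the test of that difference itself, from the limma model over all 12 arrays. Between ovalbumin and LPS the log2 differences were 1.96 for M318 (limma adjusted p = 0.0452), 1.74 for V336 (0.0243) and -1.33 for M369 (0.0243). Between ovalbumin and substance P they were 1.22 for M665 (limma adjusted p = 0.00883) and 0.88 for V287 (0.0453). Each had the same sign at 3 of 3 times. None of these differences passed under median scaling, where that of V287 turned its sign. Of the 12 fits that leave out 1 array, M318 passed in 1, V336 in 7, M369 in 6, M665 in 6 and V287 in 2. Groups of 3 arrays or fewer were not searched for outlying samples.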

How the results depend on the processing

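Counts of members past the limma threshold changed with scaling. The counts in this section are of members alone, without the share of all probes, and are not read as particular to the members. Median scaling gave 0 for any stimulus, 0 for ovalbumin against LPS, 45 for ovalbumin against substance P and 10 for substance P against LPS. No scaling gave 100, 15, 100 and 100 for these, 59 for any time, and 99, 90 and 91 for ovalbumin, substance P and LPS against saline. For any stimulus and for ovalbumin against substance P, normexp correction gave 0 and 0, trended robust variance 4 and 4, array weights 19 and 38 (and 1 for ovalbumin against saline), and leaving out time 0 and 0. The 25th percentile floor and no filter each gave 1 for ovalbumin against substance P. For any stimulus, ovalbumin against LPS and ovalbumin against substance P, 0 members passed when the 1 h arrays or the 4 h arrays were left out. Without all 24 h arrays 8, 15 and 10 passed, with 11 for ovalbumin and 1 for LPS against saline. The cause was not tested for any of these.

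Leaving out 1 array gave 0 to 13 members for any stimulus, 0 to 0 for any time, 0 to 10, 0 to 0 and 0 to 2 for ovalbumin, substance P and LPS against saline, 1 to 18 for ovalbumin against LPS, 0 to 26 for ovalbumin against substance P and 0 to 3 for substance P against LPS. Of the 100 members 97 to 98 stayed chosen, and 94 when the LPS limit was applied last.

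Members 2-fold from saline at 1, 4 and 24 h numbered 15, 19 and 3 for ovalbumin, 0, 3 and 23 for substance P and 2, 18 and 28 for LPS. No scaling gave 71, 76 and 38, then 52, 29 and 71, then 29, 72 and 40; normexp gave 25, 40 and 10, then 14, 5 and 41, then 19, 35 and 47. Median scaling gave 31 and 7 for ovalbumin 4 and 24 h, 37, 11 and 43 for substance P, and 1 and 61 for LPS 1 and 4 h. With saline 1 h or 4 h in place of saline 24 h, chosen after seeing the data, ovalbumin 24 h had 20 or 26, substance P 24 h 2 or 1 and LPS 24 h 17 or 10.

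These log2 differences changed sign. Under median scaling V336 was at 0.15 for substance P against saline, V287 at -0.42 for ovalbumin against substance P, M35 at 0.68 for substance P against LPS, V195 at 0.00069 for substance P 1 h and M655 at -0.56 for LPS 4 h. Without scaling M665 was at -0.54 against saline and -1.15 against substance P, V336 at 0.59, M369 at -0.32 for LPS against saline, V287 at -1.73, M35 at 1.76 and M655 at -0.0014 for 24 h against 1 h. At single times without scaling, M241 was at -0.22, M318 at -0.23, V195 at 0.24, M370 at 0.15 and M655 at -0.67. No paired analysis was possible because the labels give no replicate numbers and each group is 1 array; the batch numbers given for 6 arrays run with time, which the model holds as a term.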
